A study of Mus musculus with 3 samples.

Results

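The transcription factors that set up or oppose the follicular T cell programme were examined in sorted follicular regulatory T (Tfr) cells that lacked Rptor. The 10 factors were Bcl6, Tcf7, Lef1, Ascl2, Maf, Batf, Irf4, Tox, Tox2 and Prdm1. Members were all probe sets that the platform annotation assigns to 1 of these symbols alone. The rule found 22 of the 45037 non-control probe sets of an Affymetrix mouse array, for 9 of the 10 factors, among 18193 genes named by a probe set of their own. Tcf7 was not analysed here.

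Each array held RNA from spleen Tfr cells of C57BL/6 mice, taken on day 8 after immunization with ovalbumin (OVA) and sorted by CD4, CD44, GITR, CD25 and CXCR5 after lineage depletion. The WT group was 1 pool of 4 wild-type mice. The Rptor-null group was 2 pools of 8 mice each, from mice with CD4-Cre and floxed Rptor alleles, labelled Rptor-/- in the genotype field. Whether the wild-type mice carried Cre was not stated. CD4-Cre acts across the CD4-expressing T lineage and not in Tfr cells alone, so other T cells of the same mice also carried the deletion. The comparison addresses which genes change in Tfr cells when the T lineage lacks raptor, the defining subunit of the nutrient-sensing kinase complex mTORC1.

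Tfr cells are Foxp3+ regulatory T cells that adopt part of the programme of follicular helper T (Tfh) cells, move into B cell follicles and hold back germinal centre responses. Bcl6, a zinc-finger repressor, is required for both Tfh and Tfr cells. The related HMG-box factors Tcf7 (TCF-1) and Lef1 act early and favour Bcl6, Ascl2 promotes expression of the follicle-homing receptor Cxcr5, and Batf, Irf4 and Maf act downstream of T cell receptor and cytokine signals. Tox and Tox2 are HMG-box proteins that Tfh cells express, and Prdm1 encodes Blimp-1, which Bcl6 represses and which in turn represses Bcl6.

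Values are deposited probe-set intensities on a linear scale. Differences are Rptor-null minus WT on the log2(intensity + 16) scale, which understates the change of dim probe sets, and folds are on that scale. The test was limma with Benjamini-Hochberg adjustment over the 27022 probe sets with a level above 35.0, at a threshold of 0.05. With 1 WT array the spread came from the 2 Rptor-null arrays, the same spread was taken to hold for WT, and WT values carry no error.

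Of the 22 member probe sets, 17 passed the filter on low values and 5 did not. Each of the 9 measured factors had at least 1 probe set above the filter. Among the 17, 4 were lower in Rptor-null cells, 0 were higher and 13 did not pass the test. At an unadjusted p under 0.05 the limma counts were 10 lower and 1 higher. Over all probe sets tested, 16.4% were lower and 8.57% higher at that unadjusted threshold. Over all 27022 probe sets 6.11% were called lower and 2.81% higher, a split of 1651 to 759 that became 983 to 947 after quantile normalization and 1882 to 1435 after median centring. The called probe sets belonged to Tox2, Batf, Tox and Irf4. Both Rptor-null arrays lay below WT for 14 of the 17 probe sets (82.4%), against 43.9% of all probe sets tested. Both lay above WT for 3 (35.8% of all probe sets tested). No member was at least 2-fold apart in both arrays, a size reached by 0.659% of all probe sets downward and 0.392% upward. The median difference was -0.38 for the members and -0.029 for all probe sets. The members were chosen with earlier results of these data known, so these shares are a description.

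**Figure D1:**
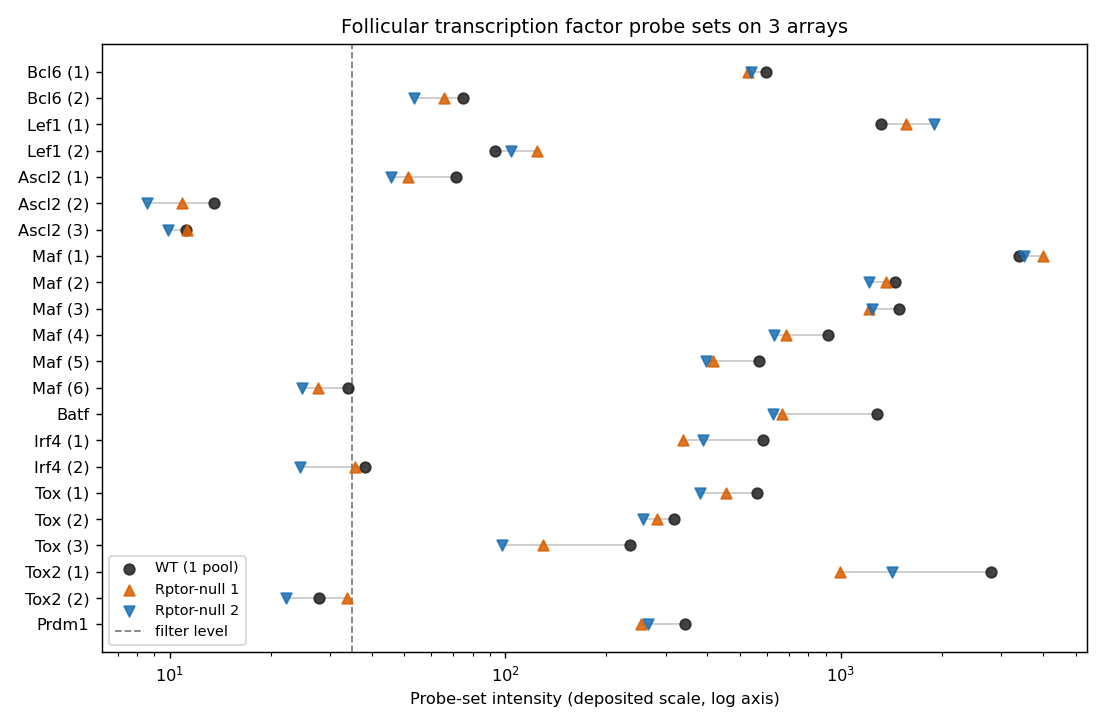
Intensity of each of the 22 member probe sets (rows) on the WT array (circle) and the 2 Rptor-null arrays (triangles), on a log axis in deposited intensity units, with the filter level of 35.0 as a dashed line. Numbers in brackets order the probe sets of 1 gene from bright to dim. The bright probe sets of Batf, Irf4 and Tox2 have WT to the right of both Rptor-null arrays, and those of Lef1 have WT to the left.

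RefSeq promoter windows on GRCm38.p6 were found for 8 of the 10 factors, and those of Maf and Tox were not used here. The 250 bases before the most upstream listed start are shown for 3 factors with a called probe set (Tox2, Batf, Irf4) and for the mutually opposed pair Bcl6 and Prdm1. Motif matches are in capitals. The Tox2 window is chr2:163202877-163203126 on the plus strand, the Batf window chr12:85686470-85686719 on the plus strand, and the Irf4 window chr13:30748983-30749232 on the plus strand. The Bcl6 window is chr16:23988853-23989102 on the minus strand, and the Prdm1 window chr10:44458749-44458998 on the minus strand.
Tox2: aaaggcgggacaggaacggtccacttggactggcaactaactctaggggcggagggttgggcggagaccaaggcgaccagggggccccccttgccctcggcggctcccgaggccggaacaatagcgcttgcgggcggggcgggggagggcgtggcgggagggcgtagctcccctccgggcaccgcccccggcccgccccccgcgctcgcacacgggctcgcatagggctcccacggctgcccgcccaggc
Batf: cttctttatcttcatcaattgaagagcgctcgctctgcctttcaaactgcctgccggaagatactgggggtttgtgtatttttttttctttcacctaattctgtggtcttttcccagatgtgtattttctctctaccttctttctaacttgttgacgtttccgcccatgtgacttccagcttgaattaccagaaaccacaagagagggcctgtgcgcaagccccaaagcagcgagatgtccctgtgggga
Irf4: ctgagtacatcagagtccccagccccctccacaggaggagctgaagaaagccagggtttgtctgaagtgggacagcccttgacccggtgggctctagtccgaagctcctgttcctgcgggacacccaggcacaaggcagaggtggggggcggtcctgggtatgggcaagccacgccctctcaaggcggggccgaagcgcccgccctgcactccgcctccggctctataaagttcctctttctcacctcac
Bcl6: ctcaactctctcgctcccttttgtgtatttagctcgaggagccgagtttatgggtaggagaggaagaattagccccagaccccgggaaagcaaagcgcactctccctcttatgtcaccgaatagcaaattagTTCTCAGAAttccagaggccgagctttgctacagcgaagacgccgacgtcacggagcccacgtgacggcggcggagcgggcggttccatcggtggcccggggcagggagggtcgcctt
Prdm1: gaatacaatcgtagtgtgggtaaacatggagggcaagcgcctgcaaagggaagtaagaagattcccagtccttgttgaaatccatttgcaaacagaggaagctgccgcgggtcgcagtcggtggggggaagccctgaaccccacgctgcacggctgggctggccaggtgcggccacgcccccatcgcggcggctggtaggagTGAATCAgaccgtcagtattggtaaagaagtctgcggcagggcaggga

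Both strands were searched for 5 motifs: TGANTCA (AP-1, the class Batf binds with Jun proteins), GAAANNGAA (a repeat of the IRF core), CTTTGA (TCF/LEF), TTCNNNGAA (shared by BCL6 and STAT factors) and CAGCTG (an E-box). The Bcl6 window held TTCTCAGAA, which matches TTCNNNGAA, starting 118 bases before the start. The Prdm1 window held the AP-1 motif as TGAATCA, starting 48 bases before the start. No match overlapped another. In windows of the same length for 27025 genes, TTCNNNGAA occurred in 7.14% and TGANTCA in 6.85%. GAAANNGAA, CTTTGA and CAGCTG occurred in 7.16%, 14.1% and 12.7%. None of the 5 motifs occurred in the windows of Tox2, Batf or Irf4 shown here, which says only that these letters were not in those bases.

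Batf, an AP-1 protein that pairs with Jun proteins and binds DNA together with Irf4, is represented by 1 probe set. It read 1284 in WT against 669 and 629 in the Rptor-null pools. Both Rptor-null arrays were near 1 level, well below the WT array. Batf thus fell 1.96-fold, a difference of -0.97 ± 0.12 (SE; limma adjusted p = 0.0111), with folds of 1.90 and 2.02 in the separate arrays. Only 1.09% of the probe sets tested had a difference this low or lower.

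Irf4, an interferon regulatory factor induced by T cell receptor signals and required for effector regulatory T cells, had 1 of 2 probe sets above the filter. The bright probe set read 586 in WT against 339 and 388 in the Rptor-null pools. WT was again above both. Irf4 fell 1.59-fold (-0.67 ± 0.14, SE; limma adjusted p = 0.0370). The dim probe set read 38.3, 35.7 and 24.4 and was not tested. The Irf4 call was lost after quantile normalization (-0.55, limma adjusted p = 0.0677) and without the filter on low values (limma adjusted p = 0.0624).

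Maf, a basic leucine zipper factor that promotes Il21 and Il10 in T cells, had 5 of 6 probe sets above the filter, and none passed the test. Its brightest probe set read 3392 in WT against 3990 and 3502 in the Rptor-null pools. In order of WT level, the next probe set read 1485 in WT and 1212 and 1234, and the one after it read 1452 in WT and 1364 and 1212. The remaining pair above the filter read 916, 684 and 633 on the brighter and 568, 416 and 397 on the dimmer. The brightest probe set therefore stood above WT in both arrays, and the other 4 stood below it. Their differences ran from -0.47 to 0.14, and the lowest limma adjusted p was 0.0593, for the probe set at 916 in WT, which passed with the 60th percentile filter (limma adjusted p = 0.0441). Averaged over its 5 probe sets, Maf had a difference of -0.25 (limma adjusted p = 0.155), a sign opposite to that of the brightest probe set alone. Where in the transcript each probe set lies was not analysed here.

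Tox2 gave the lowest difference among the members. The bright probe set read 2809 in WT against 991 and 1420 in the Rptor-null pools. The 2 Rptor-null arrays differed from each other more than for Batf, and both stayed below WT. Tox2 fell 2.35-fold (-1.23 ± 0.20, SE; limma adjusted p = 0.0176), with folds of 2.81 and 1.97 in the separate arrays. Only 0.370% of the probe sets tested were as low. The Affymetrix suffix of this probe set marks one that can match several transcripts, and the other Tox2 probe set, at 27.8, 33.7 and 22.2, lay below the filter.

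Tox, the paralogue of Tox2, had 3 probe sets above the filter, all below WT in both arrays. The dimmest read 235 in WT against 130 and 97.4 in the Rptor-null pools, a 1.96-fold fall (-0.97 ± 0.20, SE; limma adjusted p = 0.0345). The brightest read 562, 454 and 381 (-0.42, limma adjusted p = 0.139), and the remaining one read 318, 284 and 258 (-0.22, limma adjusted p = 0.419). Tox thus passed the test on 1 probe set of 3. Fitted on the mean of its 3 probe sets, Tox was lower (-0.54, limma adjusted p = 0.0400). The call of the dimmest probe set was lost after quantile normalization (limma adjusted p = 0.0505) and without the filter on low values (limma adjusted p = 0.0557).

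**Figure D2:**
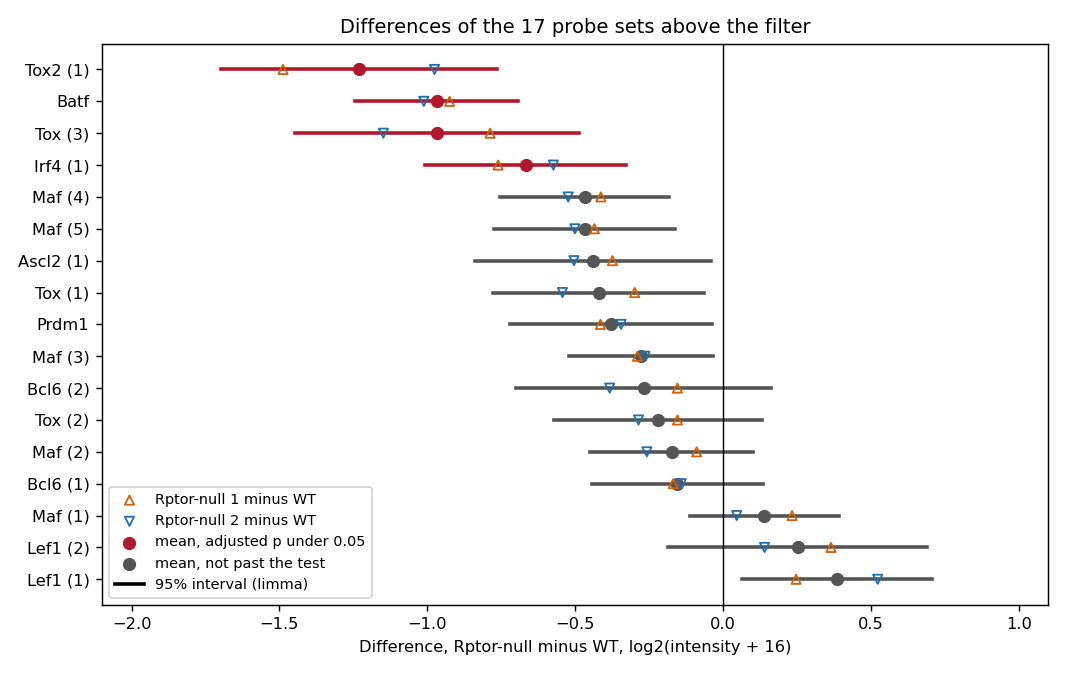
Difference between Rptor-null and WT on the log2(intensity + 16) scale for the 17 member probe sets above the filter, with the mean (dot), its 95% limma interval (bar) and each Rptor-null array (open triangles). Red marks the 4 probe sets past the test, of Tox2, Batf, Tox and Irf4. The 2 probe sets of Lef1 and the brightest of Maf lie to the right of 0, and the other 14 lie to the left.

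Bcl6 itself did not pass the test on either probe set. The bright one read 598 in WT against 530 and 540 in the Rptor-null pools, a difference of -0.15 with a 95% interval from -0.44 to 0.14 (limma adjusted p = 0.495). All 3 arrays lay close together. The dim one read 74.6, 65.4 and 53.5, with an interval from -0.70 to 0.16. The interval of the bright probe set does not reach the size of the Batf or Tox2 differences, though it allows a fall of up to 0.44 on the log2 scale.

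Prdm1, which encodes the Bcl6 antagonist Blimp-1, read 343 in WT against 253 and 267 in the Rptor-null pools on its 1 probe set. Both arrays were below WT, and the difference of -0.38 (95% interval -0.72 to -0.039) did not pass the adjusted test (limma adjusted p = 0.158). Bcl6 and Prdm1 therefore read lower in both Rptor-null arrays, neither past the test. Whether the 2 differences differ from each other was not tested.

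Lef1 was the factor whose probe sets all stood above WT. The bright one read 1314 in WT against 1562 and 1895 in the Rptor-null pools (0.38 ± 0.13, SE; limma adjusted p = 0.132). The dim one read 92.8, 124 and 104 (0.25, limma adjusted p = 0.458). After median centring the bright probe set passed the test at 0.44 (limma adjusted p = 0.0487). It was the only member call toward higher values in the 11 alternatives with a test.

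Ascl2, a basic helix-loop-helix factor, was dim on this array. Its brightest probe set read 71.3 in WT against 51.3 and 45.5 in the Rptor-null pools (-0.44, limma adjusted p = 0.164). The other 2 probe sets read between 8.54 and 13.5 on all 3 arrays, below the filter, so the array gave little measure of this gene.

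The difference between the arrays depended on the level of the probe set. In 5 equal bins of the probe sets tested, from dim to bright, the median difference was 0.063, 0.038, -0.059, -0.11 and -0.13, and the share called lower rose from 0.574% to 15.9%. Of the 17 member probe sets, 13 lay in the 2 brightest bins, where 8.03% and 15.9% were called lower. RNA measures also differed: the 3' to 5' signal ratio of Gapdh was 1.11 in WT against 1.94 and 2.58 in the Rptor-null arrays, and that of beta-actin was 1.40, 2.65 and 2.87. Their part in the member differences was not tested. Rptor read 365, 353 and 412 on its brightest probe set (a difference of 0.059), and its other probe set above the filter had a difference of 0.31. Whether these probe sets lie in the deleted part is not known, so the values check nothing about the deletion. All 4 member calls were lost without a variance trend in limma (adjusted p between 0.0507 and 0.0827), a fit that called 1 probe set lower and 1 higher in the whole table.

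**Figure D3:**
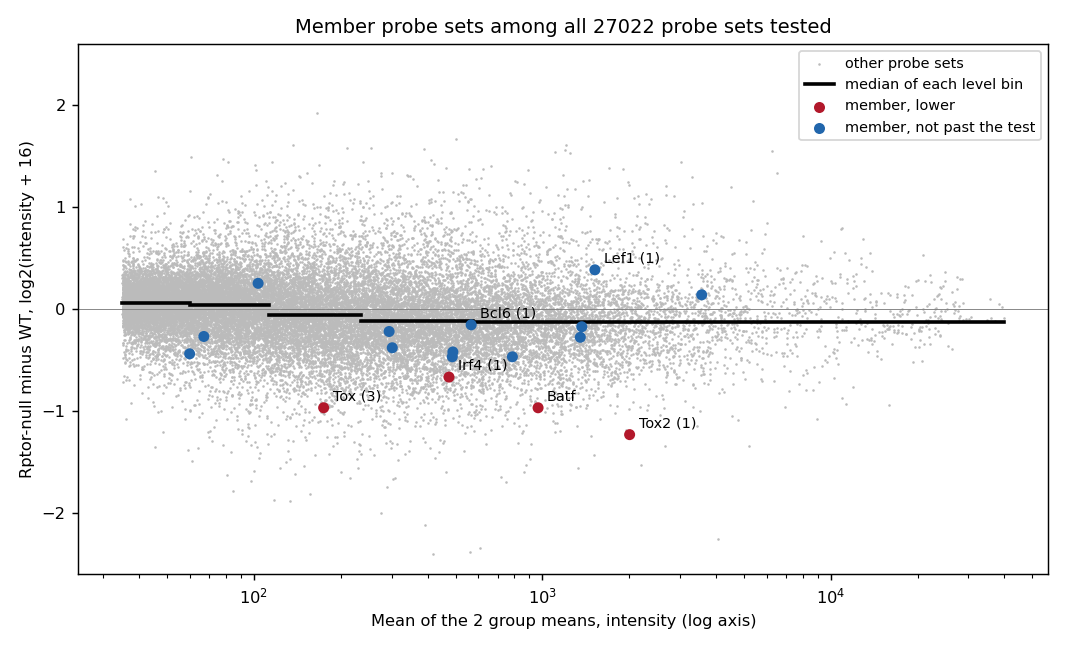
Mean level (log axis, intensity) against the difference between Rptor-null and WT (log2(intensity + 16)) for all 27022 probe sets tested (grey; 3 fall outside the axis), with the median of each of 5 level bins as a black line. Member probe sets past the test are red and the others blue. Tox2, Batf and the dimmest Tox probe set lie at the lower edge of the cloud. The bright probe set of Bcl6 and the brightest of Maf lie nearer its middle.

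Genes that belong to the surroundings of these factors were read on their brightest probe set above the filter. Over 12721 genes read this way, 7.62% were called lower and 2.76% higher, and the median difference was -0.060. At an unadjusted limma p under 0.05, 2550 of the 12721 genes were lower and 937 higher. The unadjusted counts of the lists below are to be read beside these. Among the factors read the same way, 3 of 9 were lower (Tox2, Batf and Irf4) with a median of -0.42.

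Signals upstream of Bcl6 moved in both directions, with 4 of 19 genes higher, 2 lower (limma; 4 higher and 5 lower at an unadjusted p under 0.05) and a median of -0.10, which turned to 0.026 after quantile normalization. Il6ra, the receptor chain for interleukin 6, a cytokine that induces Bcl6 through Stat3, rose 1.98-fold from 903 to 1944 and 1676 (0.99; limma adjusted p = 0.0113), while its other probe set had a difference of 0.35. Il21r, the receptor for interleukin 21, fell 1.67-fold from 500.0 to 288 and 299 (limma adjusted p = 0.0252). Stat3 read 1336 in WT against 1312 and 1258 in the Rptor-null pools (limma adjusted p = 0.795). The inhibitors of E proteins parted. Id3 fell 1.97-fold from 818 to 399 and 414 (limma adjusted p = 0.0117), and Id2, which restrains the Tfh programme, rose 1.31-fold from 2778 to 3585 and 3704 (limma adjusted p = 0.0433), with differences from 0.051 to 0.75 over its 3 probe sets. The other higher genes, named after their values were seen, were Notch2 (0.47, with 0.24 on its other probe set) and Itch (0.46, with -0.13 on the lowest of its 3 probe sets).

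Partners and relatives of the factors were mostly not past the test. In a list of AP-1 and ETS factors, 2 of 11 genes were higher and 0 lower by limma, and the median was 0.41. At an unadjusted limma p under 0.05, 6 were higher and 0 lower. The list held Jun and Fos proteins, Batf2, Batf3, Spi1 and Spib, so it is not a list of partners alone. Batf2 and Batf3 are also counted among the paralogues below. Jun, Junb and Jund, named after their values were seen, had differences of 0.30, 0.11 and 0.0031, none past the test. Fosl2 rose 1.76-fold from 257 to 426 and 503 on its brightest probe set (limma adjusted p = 0.0264), while its other probe set had a difference of 0.086. Fosb rose 1.40-fold (limma adjusted p = 0.0446). None of these 11 genes lay below WT in both arrays, whereas Batf and Irf4 themselves did. Above WT in both arrays were 9 of the 11. Over all 12721 genes, 6196 lay below WT in both arrays and 4173 above it. Spi1, Batf3 and Fosl1, named after their values were seen, had differences of 0.61, 0.54 and 0.51 (limma adjusted p = 0.0516, 0.0808 and 0.0958). Fosl1 read 32.2 in WT, below the filter level of 35.0, and 53.1 and 52.5 in the Rptor-null pools. It passed the filter only through the Rptor-null arrays, and it is included in the counts above. Spi1 encodes PU.1, a factor of macrophages and B cells, and macrophage markers were higher on the same arrays with a median of 0.72, whose part in these differences was not tested.

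Bcl6 corepressors had 0 of 8 genes past the limma test (0 higher and 2 lower at an unadjusted p under 0.05; median -0.15), and TCF/LEF coregulators had 0 of 10 (0 and 0; median -0.11). Among 19 paralogues of the factors 1 was higher and 0 lower (4 and 2 at an unadjusted p under 0.05; median 0.048). The higher one was Tcf7l2, a TCF/LEF family member, which rose 1.97-fold from 123 to 223 and 298 (limma adjusted p = 0.0334). Irf8, the paralogue closest to Irf4, read 1003 in WT against 1207 and 1549 in the Rptor-null pools (limma adjusted p = 0.137). Tox4, named after its values were seen, read 340 in WT and 321 and 327.

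Follicular genes, the products that these factors help to switch on, were lower in 8 of 19 cases, with 1 higher, 10 not past the test (limma; 12 lower and 1 higher at an unadjusted p under 0.05) and a median of -0.62. Sostdc1 fell 2.63-fold from 508 to 197 and 170, Pdcd1 (PD-1) 2.46-fold from 654 to 261 and 253, and Icos 2.22-fold from 4733 to 2183 and 2067. Il21 fell 2.09-fold from 224 to 106 and 92.1, and Cxcr5 1.83-fold from 713 to 374 and 392. Limma adjusted p for these 5 lay between 0.00740 and 0.0189. The higher one, named after its value was seen, was the chemokine receptor Cxcr4, from 1126 to 1683 and 1741.

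Genes that Bcl6 represses had 2 of 15 members higher, 3 lower (limma; 2 higher and 5 lower at an unadjusted p under 0.05) and a median of -0.19. Id2, listed here as well, and Klf2, a factor of T cell egress named after its value was seen, were the higher ones, and Klf2 rose from 3626 to 4791 and 5139. Cxcr3 fell 1.95-fold from 4387 to 2117 and 2380, Ccr6 1.75-fold and Gpr183 1.55-fold (limma adjusted p = 0.0102, 0.0237 and 0.0288). The 2 probe sets of Gpr183 had differences of -0.63 and -0.18. Of the genes tied to Blimp-1 and Irf4 in effector regulatory T cells, 5 of 11 were lower, 0 higher (limma; 7 lower and 1 higher at an unadjusted p under 0.05), and the median was -0.64. Cxcr6 fell 2.41-fold from 551 to 236 and 203, Ctla4 2.00-fold from 4713 to 2485 and 2209, and Tnfrsf9 1.79-fold from 1078 to 596 and 595 (limma adjusted p between 0.0100 and 0.0129). The other probe sets of Cxcr6 and Tnfrsf9 had differences of -2.0 and -1.6. Of the 11 genes, 8 lay below WT in both arrays and 2 above. The 2 above, named after their values were seen, were Havcr2 and Bhlhe40. Havcr2 read 62.5 in WT against 166 and 110 in the Rptor-null pools (0.95, limma adjusted p = 0.0576), and Bhlhe40 had a difference of 0.19.

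**Figure D4:**
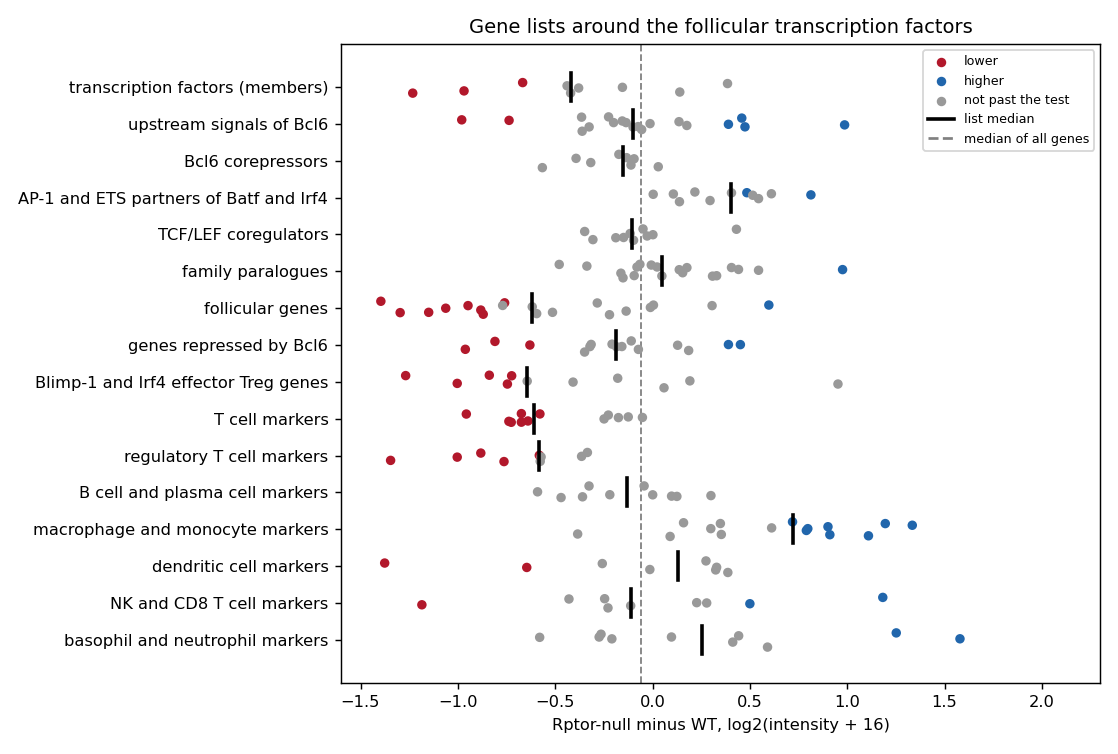
Difference between Rptor-null and WT (log2(intensity + 16)) of each measured gene in the 9 measured factors and the 15 gene lists, 1 point a gene, with the list median as a black bar and the median of all genes as a dashed line. Red points were lower and blue points higher by the limma test. The factors have a median of -0.42, between those of the upstream signals (-0.10) and of the follicular genes (-0.62).

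The lower factors and follicular genes stood on arrays where T cell genes in general were lower. All 12 measured T cell markers lay below WT in both Rptor-null arrays, as did 6196 of all 12721 genes, and 7 of the markers passed the test. The markers had a median of -0.61 and a summed intensity of 53495 in WT against 36866 and 36148 in the Rptor-null pools. Cd3g fell 1.94-fold, Lat 1.67-fold and Cd6 1.60-fold, while Thy1, named after its values were seen, read 4900 in WT and 4767 and 4684. Of 9 regulatory T cell markers 5 were lower (median -0.58), among them Tnfrsf18, which encodes the sort marker GITR and fell 2.54-fold, and Izumo1r. Foxp3 read 752, 587 and 423 (limma adjusted p = 0.119), so the defining marker of the labelled cell type was measured in all 3 pools.

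Of 15 macrophage and monocyte markers, 8 were higher and 0 lower (limma; 11 higher and 1 lower at an unadjusted p under 0.05). Their median was 0.72, and their summed intensity was 41397 in WT against 61263 and 68477 in the Rptor-null pools. Slc40a1, Vcam1 and Cd5l rose 2.52-fold, 2.29-fold and 2.16-fold, and the lowest of 3 Vcam1 probe sets had a difference of 0.50. B cell and plasma cell markers, of interest because germinal centre B cells use Bcl6 and plasma cells use Irf4 and Prdm1, had 0 of 10 past the limma test (0 higher and 2 lower at an unadjusted p under 0.05), with sums of 9123, 8566 and 9044. Jchain, at 4694, 4508 and 4600, and Xbp1, at 2694, 2842 and 3040, made up most of these sums. Cd22 read 588, 378 and 467, Mzb1 494, 292 and 357, Cd79b 264, 209 and 196 and Ms4a1 171, 130 and 136. These 6 were named after their values were seen. Cd79a, at 62.7, 50.7 and 76.9, and Pax5, at 43.9, 51.6 and 44.7, were near the filter level, and Ebf1 lay below it. Dendritic cell markers were lower in 2 of 8 cases (Cd209a and Bst2), and 0 were higher. Their median was 0.13, and 4 lay above WT in both arrays and 3 below. Their sums were 1811, 1377 and 1528, in which Cd209a read 370, 137 and 129 and Bst2 632, 393 and 404. NK and CD8 T cell markers had 2 of 9 higher (Klra8 and Eomes) and 1 lower (Cd8b1), with sums of 19416, 21322 and 23655. Basophil and neutrophil markers had 2 of 10 higher (Ms4a2, whose other probe set had a difference of 0.13, and Fcer1a) and 0 lower. At an unadjusted limma p under 0.05, 4 were higher and 2 lower. The basophil genes (Ms4a2, Fcer1a, Cpa3, Mcpt8 and Il3ra) lay above WT in both arrays. Of the neutrophil genes, S100a8 lay above WT in both arrays, and S100a9, Mpo, Ngp and Ltf lay below. Genes of this list not called were named after their values were seen. The sums were 20435, 19673 and 20136, mostly from S100a8 and S100a9. The part of these shifts in the member differences was not tested, and in pooled RNA fewer cells of a type and less RNA per cell cannot be told apart.

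The factors were also set against the median of the T cell markers, a reading chosen after the values were seen and given with no test. On their brightest probe sets, the differences of the markers themselves ran from -0.96 (Cd3g) to -0.052 (Thy1). Relative to their median, Tox2 was at -0.62, Batf and the dimmest Tox probe set at -0.36 each, and Irf4 at -0.058. Bcl6 was at 0.45 on its bright probe set, Prdm1 at 0.23 and Lef1 at 0.99. Irf4, Bcl6 and Prdm1 lay within the range of the markers, and Batf and the dimmest Tox probe set, at -0.97, were next to its lower end. Tox2 lay below that range and Lef1 above it. Other marker probe sets above the filter reached -2.3 (Cd247) and 0.23 (Zap70). With those counted, Tox2, Batf and the dimmest Tox probe set lay within the range of the markers, and Lef1 stayed above it.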

How the data were processed

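Expression was measured on 3 single-colour Affymetrix arrays, 1 per pool of mice; groups were taken from the sample titles, which call the Rptor-null pools biological replicates. The authors deposited scaled intensities for each probe set, not on a log scale; the submitters' processing notes name MAS5 with no version, and the background correction and scaling target are not given in the sources used here. Precision is limited by the number of arrays.

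Gene names came from the platform annotation (34945 with 1 gene, 932 with several, 9160 unnamed here). Control probe sets (64) and probe sets whose level, averaged over the group means, did not exceed the 40th percentile were set aside. The fit used limma 3.58.1 under R 4.3.3 (lmFit, eBayes with a variance trend; 1 residual and 5.85 prior degrees of freedom), covered all 27022 kept probe sets and was two-sided. An exact test on 1 against 2 arrays could not reach the threshold. Named genes were all members, up to 3 genes per list past the test with the largest smaller-of-2 difference, 11 fixed genes, and defining cell markers at or near background; genes outside this rule are marked where named. Of 220 listed symbols 196 were matched by exact symbol, and the others were not analysed here. The members and lists were chosen with earlier results of these data known. Promoter sequences are RefSeq's (GRCm38.p6). Alternatives were other pseudocounts, filters, scalings, probe-set summaries and variance priors, and each Rptor-null array left out.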

Additional observations from a re-analysis of the deposited data

How the results depend on the processing

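Each member probe set had the same direction in those of the 11 alternatives with a test that gave it a value (8 to 11 of them, depending on the probe set) and with either Rptor-null array left out, except that Maf turned to -0.25 with the mean of its probe sets. The count of 4 lower member probe sets became 2 without the filter on low values, 2 after quantile normalization and 0 without a variance trend (limma; 9 lower and 0 higher at an unadjusted p under 0.05); it was between 3 and 5 in the other 8. The count of 0 higher became 1 after median centring. Over all probe sets the lower and higher counts were 969 and 454 without the filter, and 1 and 1 without a variance trend. In the fit without a variance trend, 4042 of the 27022 probe sets were lower and 2251 higher at an unadjusted limma p under 0.05. The unadjusted member counts of that fit are to be read beside these. Quantile normalization gave 983 lower and median centring 1435 higher. Fits per gene count genes and not probe sets, and gave 500 genes higher on the brightest probe set and 467 on the mean. The main fit, read per gene on the brightest probe set, gave 351 higher of 12721 genes. Among the pathway lists 18 genes were lower and 9 higher, and 3 were higher without the filter. Without a variance trend 0 were lower and 0 higher (28 and 14 at an unadjusted p under 0.05). No matching unadjusted count over all genes is given here for that fit. No member was at least 2-fold lower in both arrays; with 1 Rptor-null array left out the counts were 1 and 2. The causes were not tested.

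Relative to the median of the T cell markers the signs of these probe sets turned: Bcl6 0.45 and 0.34, Ascl2 0.17, Prdm1 0.23, Tox 0.19 and 0.39, and Maf 0.44, 0.33, 0.14 and 0.14. The median of the upstream list turned to 0.026 after quantile normalization. That of the dendritic cell markers turned to -0.14 with the 60th percentile filter and to -0.0081 without the second Rptor-null array. No paired analysis was possible because the WT group has 1 array. With 1 Rptor-null array left out no residual degree of freedom remains, so those values have no test.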
